A study of Mus musculus with 31 samples.

Results

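The mitochondrial ribosomal protein genes are the 78 genes of the count table, of 20544 in all, whose symbol begins with Mrpl or Mrps followed by a number, 49 named for the large subunit (Mrpl) and 29 for the small subunit (Mrps). They were measured in all 31 single 2-cell mouse embryos of the series, 16 generated with control-treated and 15 with SER-treated sperm. SER (Sperm Energy Restriction and Recovery) holds sperm without glucose and pyruvate until they lose motility, for 15 to 45 min, and then gives the substrates back. Both groups came from wild-type C57BL/6J males of 12 to 14 weeks and superovulated CD1 females of 8 to 10 weeks, with a coculture of sperm and oocytes of 4 h, and embryos were collected 32 h after insemination. Libraries were made with Smart-seq3, which reads the 5′ end and the inside of transcripts. The labels do not say which embryos shared a male, a female or a batch, so p-values here measure the spread between single embryos, which may share parents. According to the study both groups were made in several batches, and since the labels do not name the batch of an embryo, no batch term entered the comparison.

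The mitochondrial ribosome translates the few proteins that mitochondrial DNA encodes, all of them core subunits of the respiratory chain or of ATP synthase. Its RNA is transcribed inside the mitochondrion, whereas all of its proteins are encoded in the nucleus, made in the cytosol and imported. In the mouse, mitochondria of the embryo come almost entirely from the oocyte, and the 2-cell embryo is the stage at which stored maternal transcripts are cleared and the major wave of zygotic transcription begins. Some members are counterparts of bacterial ribosomal proteins, and others are found only in mitochondria.

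Counts on genes ranged from 532945 to 2085222 in control- and from 642321 to 3088396 in SER-generated embryos. Control replicate 4 and SER replicate 15 stood apart from the other 29 embryos. Their cytosolic ribosomal protein transcripts summed to 1212 and 882 CPM (counts scaled to a common library total), against 3275 to 31343 in the others, and their sums of the listed oocyte markers (18080 and 18480 CPM) were the highest of the 31 embryos. Their zygotic activation markers summed to 49.8 and 139 CPM, against 375 to 1731 in the others. The rank correlations of single members with the cytosolic and oocyte sums, and the comparison of the groups, were also computed without them. All listed markers of cumulus cells (11), macrophages (9) and sperm (10) had a count in some embryo, and none of the cumulus or macrophage markers passed the filter on low counts. Summed cumulus markers ran from 0 to 138 CPM in control- (median 2.84) and from 0 to 13.2 in SER-generated embryos (median 4.36). Those of macrophages ran from 0 to 29.1 (median 15.0) and from 0 to 176 (median 6.00), and those of sperm from 7.82 to 69.2 (median 25.5) and from 13.5 to 38.5 (median 30.4). Their part in the results was not tested. Values are shares of the counts of an intact embryo, so fewer cells of a type and less RNA per cell cannot be told apart. The table holds none of the 15 listed mitochondrially encoded transcripts, so no level of the RNA that these proteins bind was analysed here.

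The members' promoters are shown first, since many nuclear genes for mitochondrial proteins are known to carry motifs of NRF1, ETS factors such as GABPA, and YY1 there. RefSeq promoter windows of GRCm38.p6 (250 bases before to 50 after a start site) were at hand for 69 of the 78 genes, 75 windows in all. The ETS core CCGGAAG was in 26 of the 75 windows (34.7%), on either strand, against 8.86% of all 32851 windows and 19.1% of the windows of genes that passed the low-count filter. The NRF1 core GCGCATGCG was in 7 of 75 (9.33%, against 1.75% and 4.19%), and the YY1 core AAGATGGCG in 8 of 75 (10.7%, against 1.40% and 3.41%). Of 73 windows of cytosolic ribosomal protein genes, 34.2% held the ETS core. A match is a description of the letters, and no binding was measured. The 120 bases before the start site of the RefSeq window are given for 6 members, chosen after their values were seen. Motif letters are in capitals, and each is read 5′ to 3′ on the strand of the gene. In the GENCODE annotation used here for positions, Mrpl43 and Mrps27 begin right after the stretch shown. Mrpl34, Mrpl22, Mrpl32 and Mrps11 do not, and the stretch of Mrpl32 lies wholly within its annotated gene (14608184 to 14613165). Over the 31 embryos, log2 CPM of Mrpl34, Mrpl43, Mrpl22, Mrpl32 and Mrps11 had Spearman's rho of 0.44 to 0.79 with the summed cytosolic ribosomal protein transcripts, and Mrps27 had -0.47. The median rho of tested members was 0.43 with and 0.22 without the ETS core (20 and 34 genes), 0.28 with and 0.26 without the NRF1 core (6 and 48), and 0.05 with and 0.34 without the YY1 core (6 and 48).
Mrpl34, chr8:71464806-71464925, plus strand: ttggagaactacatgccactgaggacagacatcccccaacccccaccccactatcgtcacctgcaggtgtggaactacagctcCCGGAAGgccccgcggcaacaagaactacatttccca
Mrpl43, chr19:45006443-45006562, minus strand: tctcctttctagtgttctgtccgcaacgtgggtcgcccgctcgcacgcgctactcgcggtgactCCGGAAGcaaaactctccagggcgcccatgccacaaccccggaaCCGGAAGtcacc
Mrpl22, chr11:58171544-58171663, plus strand: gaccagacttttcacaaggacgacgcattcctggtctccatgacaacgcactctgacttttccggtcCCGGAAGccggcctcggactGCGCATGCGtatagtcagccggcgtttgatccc
Mrpl32, chr13:14613038-14613157, minus strand: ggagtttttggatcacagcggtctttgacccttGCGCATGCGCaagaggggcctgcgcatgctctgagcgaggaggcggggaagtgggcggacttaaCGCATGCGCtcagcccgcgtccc
Mrps11, chr7:78783011-78783130, plus strand: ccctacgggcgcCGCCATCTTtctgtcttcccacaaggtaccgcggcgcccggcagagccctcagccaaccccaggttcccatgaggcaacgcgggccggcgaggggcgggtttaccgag
Mrps27, chr13:99344666-99344785, plus strand: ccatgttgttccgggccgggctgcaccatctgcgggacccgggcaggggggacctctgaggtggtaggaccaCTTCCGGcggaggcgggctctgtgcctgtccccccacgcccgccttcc
The capitals mark 1 ETS core in Mrpl34, 2 in Mrpl43, an ETS and an NRF1 core in Mrpl22, 3 NRF1 matches in Mrpl32 of which 2 overlap on opposite strands, a YY1 core on the opposite strand in Mrps11, and an ETS core on the opposite strand in Mrps27.

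Transcripts of the mitochondrial ribosomal proteins were found in all embryos. Of the 78 genes, 34 had at least 1 count in all 31 embryos and 58 in at least 29, and an embryo held counts for 59 to 77 of them (median 71.0). The filter on low counts kept 60 members, 38 Mrpl and 22 Mrps genes. The 18 removed members had counts in 13 to 28 embryos. Among them are Mrps5, a protein of the small subunit body, Mrpl11, part of the base of the ribosomal stalk, and Mrpl58, a peptidyl-tRNA hydrolase that frees stalled ribosomes. Together the 78 genes took 0.21% to 0.59% of an embryo's counts, and the 10 genes with the highest mean CPM gave 38.6% of that sum.

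Although most of these proteins are present once in a mitochondrial ribosome, the levels of their transcripts per kilobase of exon differed widely. The order was led by Mrpl34, a small protein of the large subunit, at a mean of 203 CPM per kilobase over the 31 embryos. Mrpl40 followed with 95.5, Mrpl46 with 84.5, Mrpl4 with 71.4, Mrps7 with 67.8 and Mrpl18 with 63.1 CPM per kilobase. The SDs over embryos were 173, 37.2, 55.6, 33.2, 21.9 and 34.6 in the same order, and differences between neighbours among these 6 were not tested. Mrpl4 lies along the tunnel through which the new chain leaves the ribosome, and Mrps7 is a primary RNA-binding protein of the small subunit head. Of the members that passed the filter, the lowest were Mrpl15 with 1.43, Mrps10 with 1.51, Mrpl13 with 3.08 and Mrpl17 with 3.09 CPM per kilobase. The lowest of all 78 was Mrps5 with 0.309, found in 15 embryos. The median of the 60 members was 19.8 CPM per kilobase, against 11.5 for 8551 tested genes with a length and 45.2 for 78 cytosolic ribosomal protein genes. Mrpl and Mrps members had medians of 21.0 and 17.5.

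These levels rest on the length assumed for a transcript. All annotated exons of a gene were merged for the values above, and for some members the merged length is far above that of the main transcript. Per kilobase of the principal transcript, the mean of Mrps10 went from 1.51 to 12.0 and Mrpl13 from 3.08 to 20.0 CPM per kilobase, whereas Mrpl34 stayed at 203. Of the 10 highest members by the merged length, 9 were among the 10 highest by the principal transcript. Mrpl34 led both orders. Division by length treats all reads alike, although a part of them come from the 5′ end of transcripts. By mean CPM without a length Mrpl34 (123) did not lead, and Mrpl4 (187) and Mrpl40 (168) were among the members above it.

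**Figure D1:**
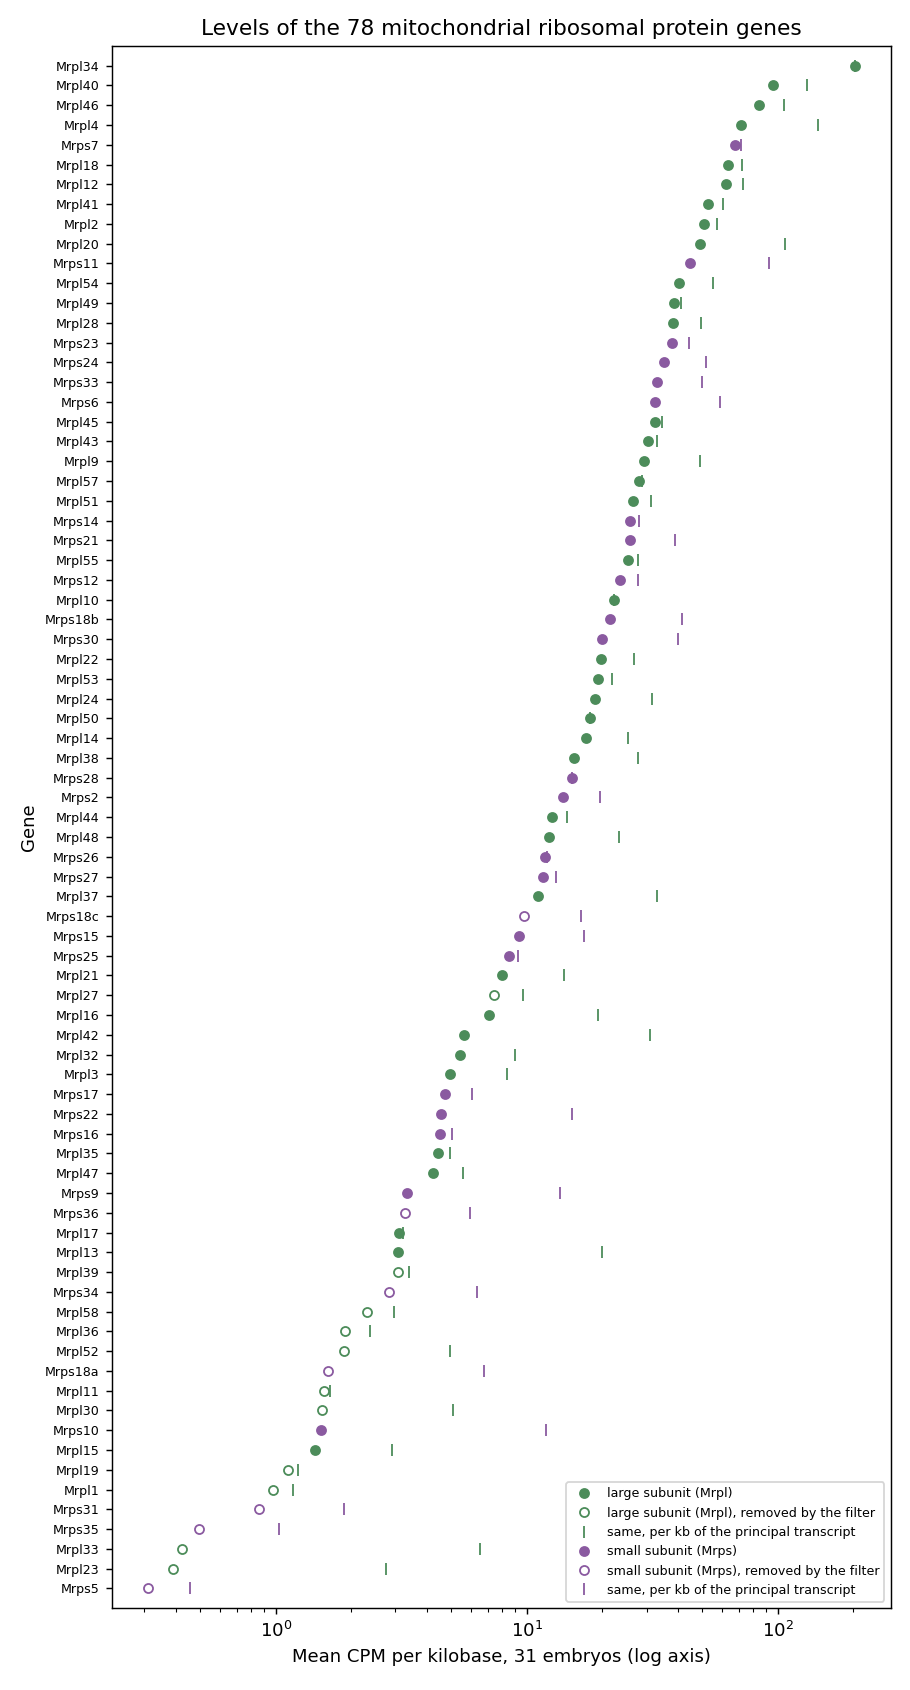
Mean level of each of the 78 genes in CPM per kilobase of merged exons over the 31 embryos (log axis). Mrpl genes are in green and Mrps genes in purple. Open circles mark genes removed by the filter, and short bars give the same mean per kilobase of the principal transcript. Circles run from 0.309 (Mrps5) to 203 (Mrpl34), and the bars lie at or to the right of the circles.

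The sum over the family differed more between embryos of a group than between the groups. In control-generated embryos the 78 genes summed to 2136 CPM at the lowest, 3161 at the median and 5929 at the highest. In SER-generated embryos the sum was 2315 at the lowest, 3174 at the median and 4067 at the highest. The medians were close, and the control-generated embryos spread further, with a mean of 3451 ± 1134 CPM (SD, n = 16), against 3118 ± 563 (SD, n = 15) with SER. Of the 16 control-generated embryos, 5 (replicates 3, 1, 2, 15 and 12) were above every SER-generated embryo and 2 were below every one. Mrpl genes had 1.80 times the summed CPM of Mrps genes at the control median (1.36 to 2.69) and 2.11 times at the SER median (1.41 to 2.88), with overlapping groups. This split is by symbol, and not every product is in the subunit of its name, as for Mrps18a and Mrps36 below.

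The family sum moved with the cytosolic ribosome. Over the 31 embryos Spearman's rho between the summed CPM of the 78 genes and that of the cytosolic ribosomal protein genes was 0.86, and with the summed oocyte markers it was -0.54. Both are descriptions, since all sums share the library and its total. Control replicates 1 and 3, with the 2 highest family sums, also had the 2 highest cytosolic sums (31343 and 29771 CPM). The family sum was less closely related to the depth of the library (rho = 0.26).

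**Figure D2:**
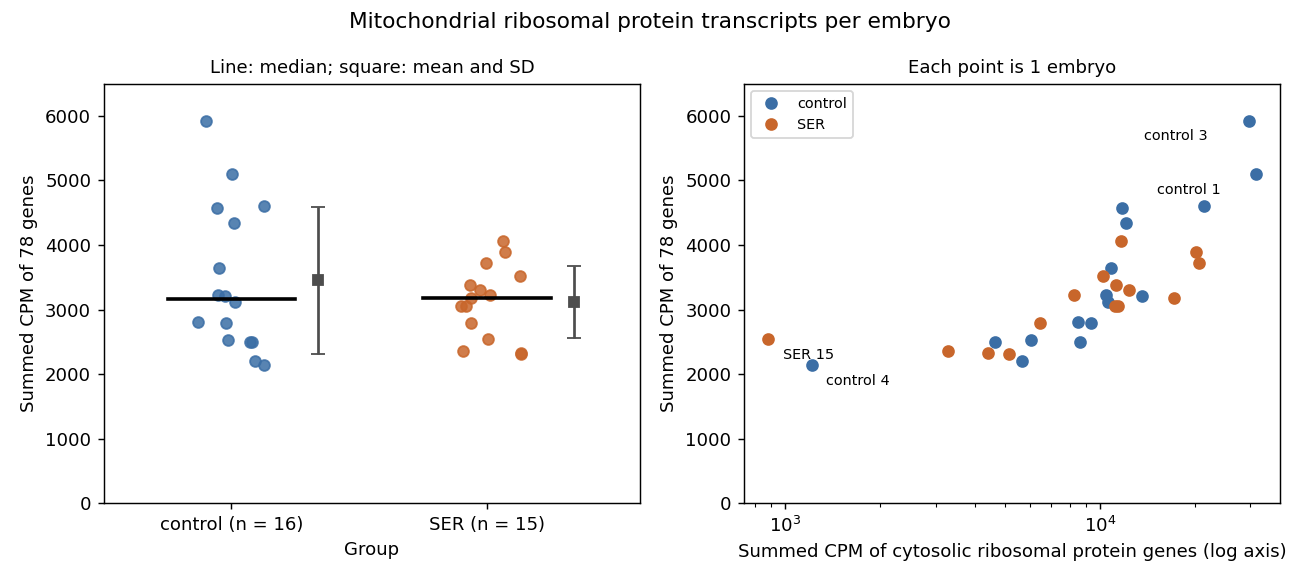
Left, summed CPM of the 78 genes in each of 16 control- and 15 SER-generated embryos, with a line at the median (3161 and 3174) and a square with a bar for mean and SD. Right, the same sums against the summed CPM of cytosolic ribosomal protein genes (log axis), where control replicates 1 and 3 lie at the upper right and control replicate 4 and SER replicate 15 at the far left.

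Single members followed the cytosolic ribosome to very different degrees. Correlations below are Spearman's rho over 31 embryos of a gene's log2 CPM with a summed level, given as descriptions of libraries that share depth and composition. The median over the 60 members was 0.42, against -0.01 over all tested genes, and 23 members (38.3%) were above 0.5, against 18.7% of all tested genes. Highest were Mrpl20 (0.83), needed for assembly of the large subunit in bacteria, Mrpl12 (0.80), the flexible stalk protein that draws in translation factors, Mrpl34 (0.79), Mrpl51 (0.77), Mrpl43 (0.77) and Mrpl40 (0.76). Without the 2 embryos that stood apart, 23 members were above 0.5 and the median was 0.38, with no share of all genes given for that set of embryos.

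At the other end were members whose transcripts were higher where the oocyte markers were high. With the summed oocyte markers, rho was 0.84 for Mrps27, a protein with pentatricopeptide repeats, 0.75 for Mrps25, 0.71 for Mrps2, 0.69 for Mrpl48, 0.64 for Mrpl53 and 0.61 for Mrpl3, whose bacterial counterpart reaches toward the peptidyl transferase centre. These 6 were the members above 0.5 of the 60 (10%, against 15.9% of all tested genes). Below -0.5 were 15 members (25%, against 20.0% of all tested genes), and the median of the 60 was -0.17. For the 6 members above 0.5 rho with the cytosolic sum ran from -0.53 (Mrps2) to -0.19 (Mrpl53). Without the 2 embryos that stood apart, 7 members were above 0.5 with the oocyte markers and 10 were below -0.5. No share of all genes is given for that set of embryos. Exons of Mrps25 overlap those of Nr2c2 on the opposite strand over 69.8% of their length. The strand setting of the counting is not given in the sources used here, so reads of this pair may be mixed. Exons of Mrpl53 overlap those of Gm42688 on the same strand over 88.0%, and reads of that pair may be mixed under any strand setting.

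**Figure D3:**
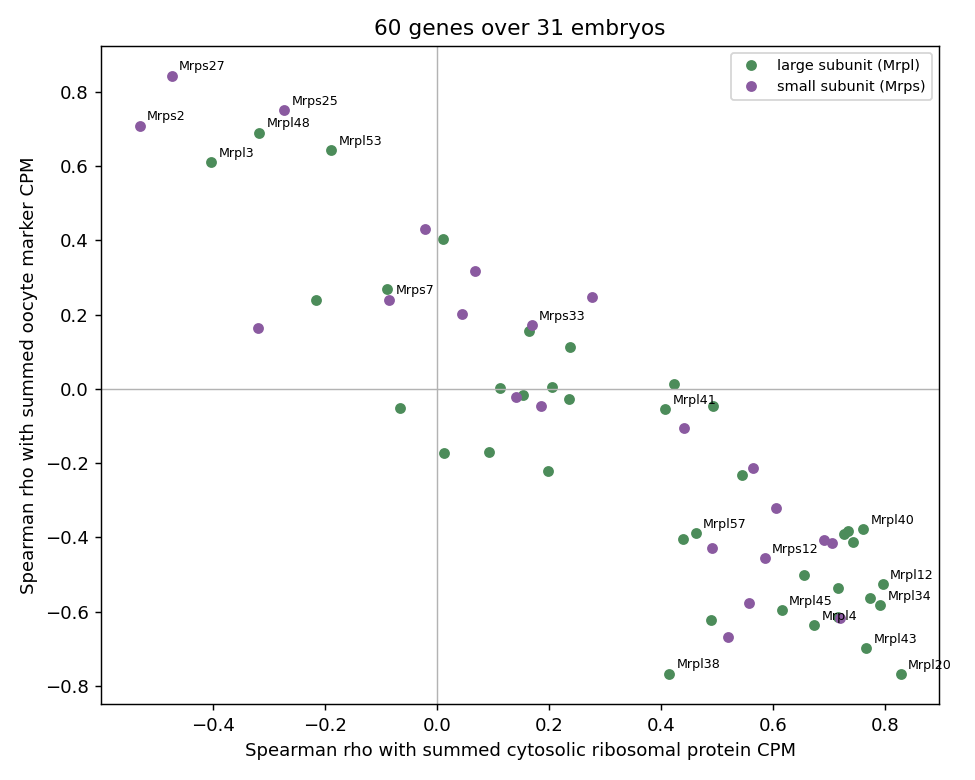
Each point is 1 of the 60 members that passed the filter, placed by Spearman's rho over 31 embryos with the summed cytosolic ribosomal protein CPM (horizontal) and with the summed oocyte marker CPM (vertical). Mrpl20, Mrpl12, Mrpl34 and Mrpl43 lie at the lower right and Mrps27, Mrps2 and Mrps25 at the upper left.

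In the 2 embryos that stood apart members differed in direction, as tested genes in general did, with shares near those over all tested genes. Relative to the median of the other 29 embryos, 14 members (23.3%) were more than 4-fold lower in both of them, against 18.0% of all tested genes. Among them Mrpl20 had no count in either embryo, Mrpl43 had none in either, Mrpl34 had 0 and 0.779 CPM against a median of 71.4 over the 31 embryos, and Mrpl4 had 10.6 and 0 CPM. Another 7 members (Mrpl9, Mrpl24, Mrpl35, Mrpl48, Mrps25, Mrps27 and Mrps33) were more than 2-fold higher in both (11.7%), against 15.3% of all tested genes. Mrps27 had 70.9 CPM in control replicate 4 and 130 CPM in SER replicate 15. The family sums of these embryos, 2136 and 2547 CPM, lay at the low end of the range but were nearer to the other embryos than the cytosolic sums were.

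The spread of a member between embryos had no single size. The largest SD of log2 CPM was that of Mrpl34 (1.83), followed by Mrpl20 (1.73) and Mrps12 (1.68), the counterpart of the bacterial decoding-centre protein. These SDs include the 2 embryos that stood apart, in which Mrpl20 had no count and Mrpl34 had 0 and 2 counts. Mrps12 ran from 0 to 106 CPM with a median of 15.4. The steadiest members were Mrps7 with an SD of 0.46, Mrpl57 with 0.59 and Mrpl40 with 0.62. Mrps7 stayed between 64.8 and 242 CPM in all 31 embryos, the 2 that stood apart included (81.5 and 146 CPM). Over the 30 members in the middle range of level (mean log2 CPM from 4.11 to 5.96) the median SD was 1.07, against 1.09 for the 3312 tested genes of that range. Pairs of members had a median Pearson's r of 0.14 with group means removed, against 0.01 for all pairs of tested genes.

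To ask whether embryos made with SER-treated sperm differed in these genes, SER- and control-generated embryos were compared gene by gene over all 8571 tested genes in edgeR (quasi-likelihood F), with p adjusted by Benjamini and Hochberg's method and a threshold of 0.1. None of the 60 members passed, and neither did any of the 8571 genes (0%). This fit had no batch term. The study itself corrected for batch and reported differentially expressed genes by DESeq2 at an adjusted p of 0.1. Among its downregulated genes it found mitochondrial annotations enriched. The smallest adjusted p of a member by edgeR was 0.631. At an unadjusted p under 0.05 edgeR counted 6 members lower (10%) and 1 higher (1.67%), against 3.55% and 2.18% of all tested genes. DESeq2 called 0 members at the same threshold of 0.1, with 11 of 78 (14.1%, 9 lower and 2 higher) under an unadjusted 0.05, against 5.47% of 17803 genes. The median standard error of a member was 0.39 on the log2 scale (0.19 to 0.61), and for 33 of the 60 members it was larger than the estimate.

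More of the estimates were lower than higher. In SER-generated embryos 44 of the 60 members had a lower estimate (73.3%, against 47.3% of all tested genes), and the median log2 fold change was -0.29, against 0.02 over all tested genes. For the Mrpl genes the median was -0.24 with 27 of 38 lower, and for the Mrps genes it was -0.36 with 17 of 22 lower. The cytosolic ribosomal protein genes had a median of -0.33 with 70 of 78 lower. The group medians of other sums differed too, with oocyte markers at 9600 CPM in the control and 6766 CPM in the SER group, zygotic activation markers at 560 and 735 CPM, and libraries at 955806.5 and 1375557 counts. Their part in the estimates was not tested beyond the fit with library size as a covariate, in which the members' median was -0.37. With the medians of the groups in place of the fit, 38 of 60 members were lower, against 4191 of all 8571 tested genes. The median difference of log2 CPM was then -0.13 over the members and 0.01 over all tested genes. Without control replicate 3, which had the highest family sum, the median was -0.17 and 3 members (5%) were under an unadjusted p of 0.05 by edgeR, against 4.57% of all genes. Without control replicate 1 the median was -0.19, and without SER replicate 11 the count was 4 (6.67%, against 5.32%). Without the 2 embryos that stood apart the median was -0.25, with 5 members (8.33%, against 7.78%) under an unadjusted p of 0.05. With the trend on exon length removed the median was -0.19. By limma voom with sample quality weights it turned to 0.06, with 24 of 60 members lower. In that weighted fit 4371 of all 8571 genes were lower, with a median of -0.015.

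**Figure D4:**
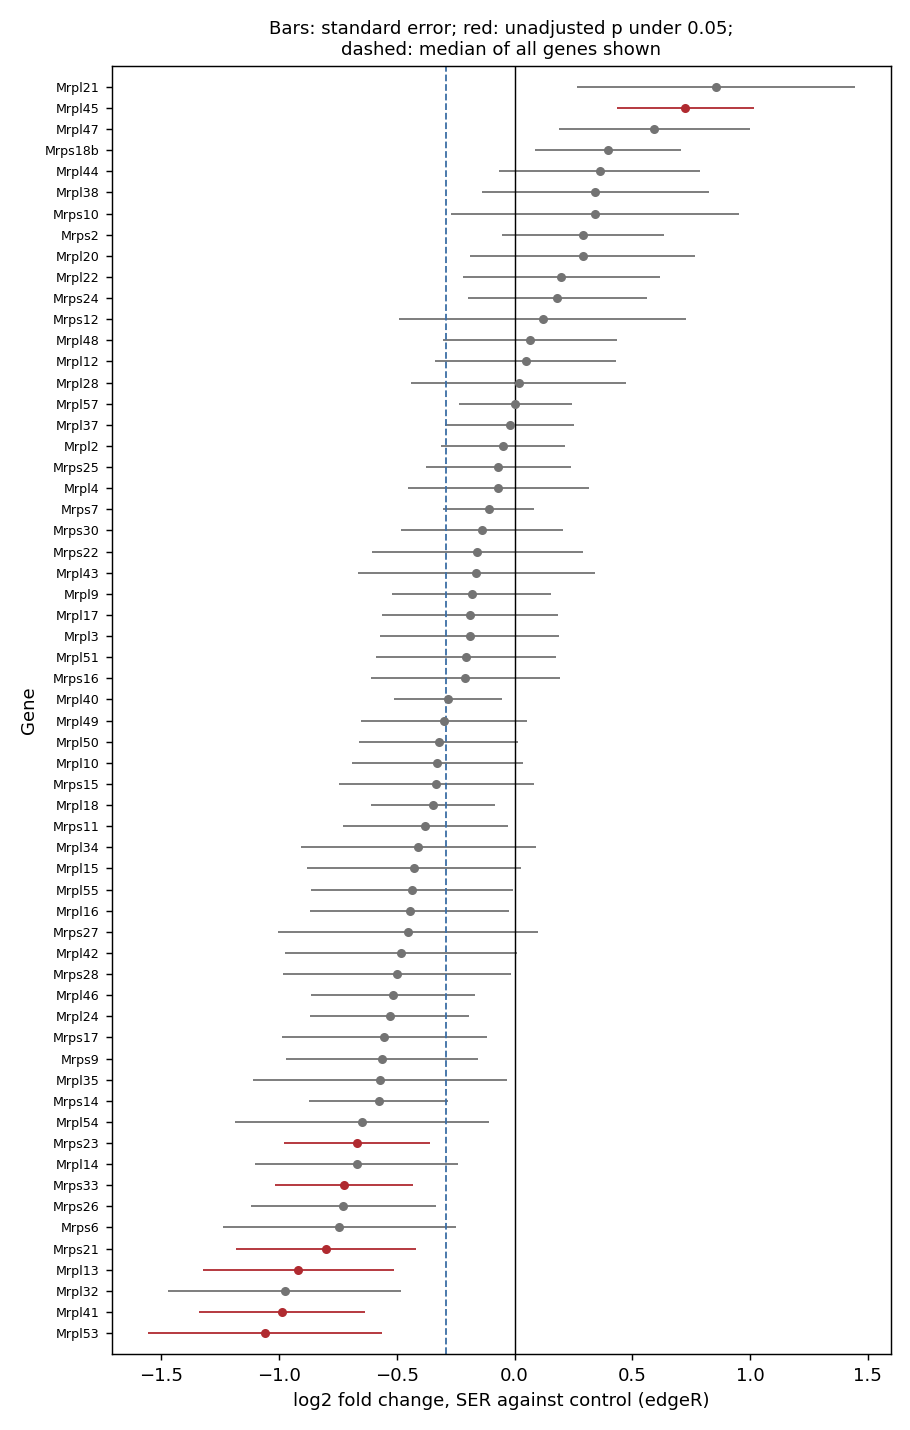
log2 fold change of SER- against control-generated embryos for the 60 members that passed the filter, with bars for the standard error from edgeR, red where the unadjusted p was under 0.05 and a dashed line at the median of -0.29. The 6 lower genes in red lie between -1.06 and -0.67 and the 1 higher gene, Mrpl45, at 0.72.

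Mrpl41, a mitochondria-specific protein of the large subunit (chromosome 2, 24974117 to 24975098, minus strand), had the smallest p. In control-generated embryos it ran from 1.51 through a median of 53.6 to 138 CPM, and in SER-generated embryos from 14.4 through 26.5 to 66.4 CPM. The groups overlapped, with 13 of 15 SER-generated embryos below the control median and the 5 highest values all in control-generated embryos. The log2 fold change was -0.99 (SE 0.35, edgeR unadjusted p = 0.00795, adjusted p = 0.631), and leaving out any 1 embryo kept it between -1.10 and -0.83. By DESeq2 without the 2 embryos that stood apart it was -1.05 with an adjusted p of 0.0996. That fit called 0.35% of 17700 genes lower, and of the members only Mrpl41 and Mrps33, both at this adjusted p.

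Mrpl45 anchors the mitochondrial ribosome to the inner membrane at the mouth of its exit tunnel (chromosome 11, 97315716 to 97329920, plus strand). It was the only one of the 7 members under an unadjusted p of 0.05 with a higher estimate. Control-generated embryos had 19.6 CPM at the lowest, 56.0 at the median and 139 at the highest, and SER-generated embryos 29.1, 102 and 170. The 5 highest values were all in SER-generated embryos, 13 of 15 lay above the control median, and the groups still overlapped. The log2 fold change was 0.72 (SE 0.29, edgeR unadjusted p = 0.0174, adjusted p = 0.745).

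The other members of lowest p were lower in the estimate and overlapped between groups. Mrps33, a small mitochondria-specific subunit protein, had 27.3 to 133 CPM in control- (median 52.4) and 15.6 to 115 in SER-generated embryos (median 41.5), a log2 fold change of -0.72 (SE 0.29, edgeR adjusted p = 0.745). Without SER replicate 15, which had the highest SER value, its log2 fold change was -0.94 and the edgeR adjusted p 0.217. Mrps21, the counterpart of a bacterial protein of the small subunit platform, had 0 to 41.4 CPM in control- (median 25.2) and 3.56 to 26.5 in SER-generated embryos (median 14.8), with 14 of 15 SER-generated embryos below the control median and a log2 fold change of -0.80 (SE 0.38).

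For Mrpl13 and Mrps23 a single control-generated embryo carried much of the difference. Mrpl13 had medians of 17.8 (6.26 to 165) in control- and 17.1 CPM (5.22 to 36.0) in SER-generated embryos. Its log2 fold change of -0.92 (SE 0.41) was -0.34 without control replicate 3, the embryo with 165 CPM. Mrps23 had medians of 60.0 (6.91 to 230) and 41.8 CPM (23.3 to 93.5), and its log2 fold change of -0.67 (SE 0.31) was -0.38 without the same embryo, the one with 230 CPM. Mrpl53, a mitochondria-specific protein of the large subunit, had medians of 15.5 (3.14 to 61.4) and 9.13 CPM (0 to 21.8), with a log2 fold change of -1.06 (SE 0.50). Mrpl32, whose maturation by the m-AAA protease is a step in building the large subunit, had medians of 24.2 (6.50 to 108) and 17.2 CPM (0 to 38.0), with a log2 fold change of -0.98 (SE 0.49). Its 3 highest values were those of control replicates 3, 1 and 2.

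**Figure D5:**
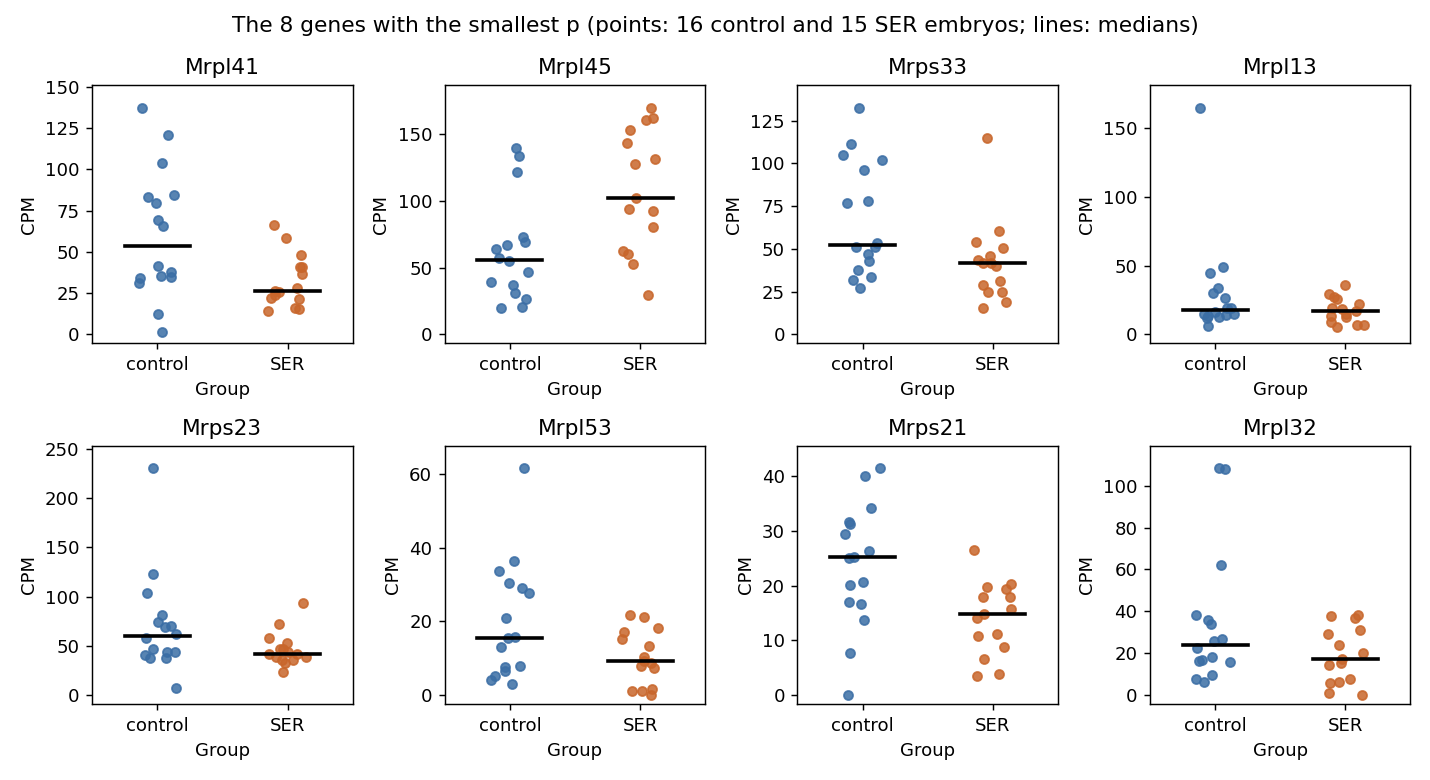
CPM of the 8 members with the smallest p in each of 16 control- and 15 SER-generated embryos, with lines at the group medians. The groups overlap for all 8 genes, and single control points at 165 CPM (Mrpl13) and 230 CPM (Mrps23) stand above the rest.

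The call on several members depended on how embryos were weighted. limma voom with sample quality weights gave control replicates 1 to 4 weights of 0.24 to 0.51 and SER replicates 12 to 15 weights of 0.09 to 0.51, against 6.14 for control replicate 6. In that fit 3 members were higher, Mrpl45 (log2 fold change 1.24, limma adjusted p = 0.00604), Mrps18b (0.89, adjusted p = 0.0399) and Mrpl12 (0.79, adjusted p = 0.0884), and 2 were lower, Mrps27 (-1.49, adjusted p = 0.0976) and Mrps9 (-1.06, adjusted p = 0.0929). That is 5% and 3.33% of the members, against 4.56% and 5.33% of all 8571 genes. Without the weights limma voom called 0 members and its median was -0.37. By edgeR the same 5 genes had log2 fold changes of 0.72 (SE 0.29), 0.40 (SE 0.31), 0.05 (SE 0.38), -0.45 (SE 0.55) and -0.56 (SE 0.41), in the same order. For Mrps27 the edgeR value was -0.17 without control replicate 3 and -1.19 without SER replicate 15.

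No member with a known special role passed the threshold by edgeR. The stalk is formed by Mrpl12 on a base with Mrpl10 and Mrpl11. Mrpl12, which also binds the mitochondrial RNA polymerase, had 15.1 to 213 CPM in control- (median 57.0) and 4.28 to 236 in SER-generated embryos (median 92.2), with a log2 fold change of 0.05 (SE 0.38) whose sign turned when any 1 of 7 embryos (control replicates 4, 10, 14 and 16, SER replicates 4, 9 and 10) was left out. Mrpl10 had medians of 35.0 and 37.5 CPM and a log2 fold change of -0.33 (SE 0.36). Mrpl11, found in 21 embryos and fitted without the filter, had -0.84 (SE 0.80).

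Mrps18a, Mrps18b and Mrps18c descend from 1 bacterial gene, and the products of Mrps18b and Mrps18c sit at different places in the small subunit whereas that of Mrps18a is in the large one. Mrps18b had the highest level of the 3, with 21.4 CPM per kilobase against 9.79 for Mrps18c and 1.62 for Mrps18a. Mrps18b had 13.0 to 93.9 CPM in control- (median 29.4) and 18.7 to 93.6 in SER-generated embryos (median 48.2), and 13 of 15 SER-generated embryos were above the control median. Its log2 fold change was 0.40 (SE 0.31), and its exons overlap Gm16279 on the opposite strand over 30.5% of their length. Mrps18a (0.29, SE 0.82) and Mrps18c (-0.78, SE 0.68) were fitted without the filter.

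Of small subunit proteins, Mrps7 had -0.11 (SE 0.19), Mrps12 0.12 (SE 0.61), Mrps16 -0.21 (SE 0.40) and the mitochondria-specific Mrps22 -0.16 (SE 0.45) as log2 fold changes. Of large subunit proteins, Mrpl3 had -0.19 (SE 0.38) and Mrpl44, which has the fold of a double-stranded RNA nuclease, 0.36 (SE 0.43). Mrpl58 (0.42, SE 0.78, 22 embryos) and Mrps36 (-0.26, SE 0.63, 28 embryos) were fitted without the filter. Mrps36 is now known as a subunit of the 2-oxoglutarate dehydrogenase complex, and it has 3 annotated processed pseudogenes that could share its reads.

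The 18 members under the filter were taken from a fit of all 17803 genes with a count. That fit called 2.83% of its genes and 0 members, with 7 of the 78 members (8.97%) under an unadjusted p of 0.05, against 10.7% of all its genes. Of the 18, 11 had a lower and 7 a higher estimate, from -0.90 to 1.32. The smallest adjusted p by edgeR was 0.457, for Mrpl39, whose median was 3.72 CPM in the control and 12.6 CPM in the SER group.

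The other genes of mitochondrial translation gave no call by edgeR either, and at an unadjusted p under 0.05 1 of them was counted. Of 5 ribosomal subunits that carry other names (Dap3, Ptcd3, Chchd1, Aurkaip1 and Gadd45gip1), all 5 were tested, 3 with a lower estimate and a median of -0.02. Of 28 assembly factors 15 were tested, 3 of them lower, with a median of 0.27. Of 18 translation factors 9 were tested, 4 lower, median 0.01, and of 17 mitochondrial aminoacyl-tRNA synthetases 10 were tested, 4 lower, median 0.04. The 1 gene was Tars2, which charges mitochondrial threonine tRNA, with medians of 9.09 (0 to 35.3) in control- and 18.2 CPM (0 to 119) in SER-generated embryos and a log2 fold change of 1.53 (SE 0.61, edgeR adjusted p = 0.733). The gene of smallest p among assembly factors was Eral1, an RNA chaperone of the small subunit (0.74, SE 0.44), among translation factors Taco1, an activator of Cox1 translation (0.76, SE 0.38), and among the subunits of other names Chchd1 (0.63, SE 0.62).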

How the data were processed

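Single 2-cell embryos were sequenced, 16 control- and 15 SER-generated. The authors aligned 5′ and internal reads with STAR, removed duplicates, and used FeatureCounts to count the reads of each gene. The submitters' processing notes name mm10. The annotation, the strand setting and tool versions are not given in the sources used here. The deposited table holds whole-number counts, taken as raw. CPM was computed from library totals. Embryos were compared by edgeR 4.0.16 (R 4.3.3) with TMM, genes kept by filterByExpr (minimum count 10, minimum total count 15), quasi-likelihood tests and Benjamini-Hochberg adjustment over all genes at 0.1. The study's methods correct for batch, which could not be repeated. A standard error is the estimate's size over the square root of F. Log2 CPM used a prior count of 2. Lengths and positions came from GENCODE vM21 (GRCm38), in which all 78 members were found by symbol. Lists of pathway and marker genes were written from general knowledge. Members and lists were chosen with earlier results of these data known. The text names the 8 members with the smallest p, the 6 highest and 4 lowest per kilobase, the 3 most and 3 least variable, 15 chosen by role, those called in any alternative, and the gene of smallest p in each other list. The promoters shown, and members named for rho or for the embryos that stood apart, were chosen after their values were seen. Alternatives were DESeq2 1.42.0, its size factors, limma 3.58.1 voom, no filter and a stricter filter (at least 10 counts in at least 15 embryos), the replicate number as a block, 3 clusters of embryos, library size as a covariate, thinning, removal of a length trend, a threshold of 0.05 and fits without single embryos. Molecular identifiers mark 5′ reads only, so the true error can exceed counting error. The edgeR step was tested on simulated data. No 2 libraries were identical.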

Additional observations from a re-analysis of the deposited data

How the results depend on the processing

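The number of members past an adjusted p of 0.1 was 0 by edgeR under its other size factors, no filter, the stricter filter, the block, the clusters, the depth covariate, thinning, both removals of the length trend, an adjusted p under 0.05 and each of the 31 fits that left out an embryo, and by DESeq2 and by limma voom without weights. It was 5 by limma voom with sample quality weights, 5 by that fit without the 2 embryos that stood apart, and 2 by DESeq2 without them. The fits without the 2 embryos, limma voom without weights, the length of the principal transcript and the total without the most abundant genes alone were added after the data had been seen. Over all genes, edgeR called 504 without the filter, 41 with clusters and 5 after thinning, DESeq2 called 46 and, without the 2 embryos, 77, and limma voom with weights called 848 and, without them, 856. Members under an unadjusted p of 0.05 numbered 11 of 78 by DESeq2, 13 of 78 (16.7%, against 6.76% of all genes) by DESeq2 without the 2 embryos, 4 of 60 (6.67%, against 6.31%) by limma voom without weights, and 3 to 9 by edgeR without single embryos. Several of these edgeR fits had 9, 8 lower and 1 higher. Among them, the fit without SER replicate 15 had 483 of all 8519 genes lower and 311 higher, and the fit without control replicate 7 had 307 of 8503 lower and 177 higher. The cause was not tested. The other genes of mitochondrial translation gave 0 calls in each of these fits.

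The median log2 fold change of the members reversed to 0.063 by limma voom with weights and to 0.017 in that fit without the 2 embryos. Without the weights it was -0.37, so the reversal came with the weights. Without single embryos it ran from -0.36 (without SER replicate 5) to -0.17. Mrpl13 reversed to 0.14 and 0.095 in the weighted fits. Mrpl12, near 0 by edgeR, reversed to -0.033 with library size as covariate and to -0.16 by limma voom without weights, and it ran from -0.10 to 0.21 without single embryos. By the median over embryos, 9 of the 10 highest members per kilobase were the same genes. The group medians of the family sum kept their order with TMM-scaled sizes (2920 and 2985 CPM) and without the 20 most abundant genes (3448 and 3482).

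In the labels, same-numbered embryos of the groups have only a number in common. The correlations of their deviations ran from -0.37 to 0.49 over 15 pairs, with 8 above 0.1. For 2 of the 15 SER-generated embryos the best correlated control-generated embryo was the one of the same number. Whether the embryos of a pair shared a batch or a parent cannot be told from these values. With the replicate number as a block, edgeR had 2 members (3.33%, against 3.63% of all genes) under an unadjusted p of 0.05, a median of -0.20 and 0 members past the threshold. With the length trend removed as well it had 3 (5%, against 2.87%) and a median of -0.13, the edgeR value nearest to 0. The 18 members under the filter had few counts, and the parts of depth and of level in this were not tested. Thinning to the smallest library left 47 members to test.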
